A study of Mus musculus with 33 samples.

Results

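The genes described here are 37 macrophage and other leukocyte genes, measured by RNA sequencing of whole embryonic mouse kidneys. They were taken by symbol from the 35349 gene symbols of a table of raw read counts. All 37 were found, 1 of them, Adgre1, under its older symbol Emr1. They are treated in 4 classes: 17 genes typical of tissue-resident macrophages, 8 monocyte and general myeloid genes, 10 pan-leukocyte genes, and 2 genes that other cells of the kidney also make (Csf1 and Cd36). The kidneys came from mice that differed at Six2, which encodes the homeodomain transcription factor that keeps nephron progenitors undifferentiated. The groups were 4 heterozygous and 4 wild-type specimens at embryonic day 15.5 (E15.5), and 5 knockout, 5 heterozygous and 6 wild-type embryos at E11.5. Heterozygous kidneys lacked 1 copy of Six2 and knockout kidneys both copies. The titles of the heterozygous E15.5 libraries of batch 1, but not of batch 2, carry the code GCE, and the labels describe neither the allele nor the strain. They do not say what the code means, so whether it stands for a Cre driver cannot be told from them. No Cre driver or further treatment is otherwise named for any group, and the labels do not say whether a specimen is 1 animal or a pool.

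Macrophages of the embryonic kidney descend from early haematopoietic precursors that enter the tissue from the circulation and then persist there, and monocytes made later in the fetal liver add to them. They depend on the receptor CSF1R, whose ligands CSF1 and IL-34 are made by surrounding cells, and on the transcription factor PU.1, encoded by Spi1. In developing organs they clear dying cells and lie close to growing epithelium and vessels. Circulating monocytes are recognised by the chemokine receptor CCR2, and nearly all white blood cells carry the phosphatase CD45, encoded by Ptprc. Because RNA was taken from the whole organ, fewer cells of a type and less RNA per cell cannot be told apart in any value below.

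The 24 specimens were sequenced as 33 libraries of 10819256 to 42073021 counts. Six2 averaged 6.15 ± 0.342 CPM (counts-per-million of the scaled library size) in heterozygous and 11.7 ± 0.834 in wild-type kidneys at E15.5 (SD, n = 4 each), and 0.473 ± 0.134 in knockout (n = 5), 13.1 ± 2.88 in heterozygous (n = 5) and 25.0 ± 5.63 in wild-type kidneys (n = 6) at E11.5, with no overlap between genotypes of a stage. None of 12 kidney marker genes was at 0 in any group, and neither was any member taken over a whole group. At E11.5 the libraries of batch 1 held 0.879 to 12.5% ribosomal RNA counts in knockout, 3.57 to 18.7% in heterozygous and 20.5 to 26.6% in wild-type kidneys, against 0.223 to 0.469% in batch 2. Titles of E11.5 libraries carry a prefix, from G1 to G6, whose meaning the labels do not give, and 3 of the 5 knockouts have the prefix G6, which no other genotype has. Each E11.5 embryo was tested with sex and batch in the model. At E11.5 there were 4 female and 1 male knockouts, 2 female and 3 male heterozygotes, and 4 female and 2 male wild types. At E15.5 each genotype had 1 female and 3 male specimens.

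Promoter sequences of 5 members, of which Mrc1, C1qb, Cd53 and Cx3cr1 rose in knockouts and Itgam did not pass, are given first. RefSeq promoter windows of 300 bases, from 250 before to 50 after the annotated start in build GRCm38.p6, were found for 28 of the 37 genes. The sequence GAGGAA, the core that PU.1 binds, was searched on both strands, so that it appears either as GAGGAA or as its complement TTCCTC. It was present in 19 of 33 windows (57.6%), which belong to 17 genes (60.7%), against 28.3% of all 32851 RefSeq windows and 31.3% of all 27025 genes with a window. Capitals below mark these matches, which overlap no other motif searched, and each run reads 5′ to 3′ along the gene. Mrc1 (chr2:14229164-14229463 on the plus strand) and Itgam (chr7:128062390-128062689 on the plus strand) are shown because they hold 3 matches each, Cd53 (chr3:106790100-106790399 on the minus strand) because it holds 2, C1qb (chr4:136886151-136886450 on the minus strand) because it holds 1 at 30 bases before the start, and Cx3cr1 (chr9:120068247-120068546 on the minus strand) because its window holds none. A match is a description of these letters and no evidence of binding.
Mrc1: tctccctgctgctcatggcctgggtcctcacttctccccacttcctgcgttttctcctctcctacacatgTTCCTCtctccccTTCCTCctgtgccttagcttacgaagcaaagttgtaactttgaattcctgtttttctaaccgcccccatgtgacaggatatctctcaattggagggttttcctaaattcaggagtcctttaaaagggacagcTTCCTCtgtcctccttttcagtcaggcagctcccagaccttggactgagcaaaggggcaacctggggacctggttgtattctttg
C1qb: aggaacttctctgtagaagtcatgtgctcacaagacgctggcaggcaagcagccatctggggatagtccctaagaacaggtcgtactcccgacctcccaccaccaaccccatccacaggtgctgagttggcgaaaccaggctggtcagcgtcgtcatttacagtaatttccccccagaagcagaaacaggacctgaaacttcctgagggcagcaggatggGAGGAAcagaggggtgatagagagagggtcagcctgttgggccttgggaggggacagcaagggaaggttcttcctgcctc
Itgam: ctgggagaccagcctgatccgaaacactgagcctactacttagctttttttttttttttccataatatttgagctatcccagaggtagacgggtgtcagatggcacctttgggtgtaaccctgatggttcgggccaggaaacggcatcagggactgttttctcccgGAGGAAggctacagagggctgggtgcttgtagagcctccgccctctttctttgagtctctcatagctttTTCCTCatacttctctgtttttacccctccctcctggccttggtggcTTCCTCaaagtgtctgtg
Cd53: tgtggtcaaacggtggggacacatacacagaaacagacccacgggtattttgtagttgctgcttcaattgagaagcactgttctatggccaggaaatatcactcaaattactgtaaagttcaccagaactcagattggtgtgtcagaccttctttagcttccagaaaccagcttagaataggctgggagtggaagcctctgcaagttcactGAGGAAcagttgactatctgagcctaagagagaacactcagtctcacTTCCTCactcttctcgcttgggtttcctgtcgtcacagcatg
Cx3cr1: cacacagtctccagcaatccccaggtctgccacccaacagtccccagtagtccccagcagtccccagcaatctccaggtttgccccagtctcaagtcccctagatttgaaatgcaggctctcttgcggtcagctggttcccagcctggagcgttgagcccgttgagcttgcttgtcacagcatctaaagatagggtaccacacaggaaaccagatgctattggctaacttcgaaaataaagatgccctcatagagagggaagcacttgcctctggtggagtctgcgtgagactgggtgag

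Per kilobase of the deposited gene length, a few genes led at each stage. At E15.5 the scavenger receptor gene Stab1 had the highest level in heterozygous kidneys, with 13.2 ± 0.556 CPM per kilobase (SD, n = 4), and in wild-type kidneys, with 12.4 ± 0.128 (n = 4). Lyz2, the lysozyme gene of myeloid cells, came second with 10.3 ± 0.643 in heterozygous and 10.95 ± 1.35 in wild-type kidneys. Stab1 and Lyz2 stood apart by more than their SDs in heterozygous kidneys and by about 1 SD of Lyz2 in wild-type kidneys. At E11.5 Pf4, a chemokine gene of macrophages and platelets, was highest with 24.9 ± 5.8 CPM per kilobase in knockout (n = 5), 16.9 ± 4.13 in heterozygous (n = 5) and 19.6 ± 4.72 in wild-type kidneys (n = 6). C1qb, Stab1, C1qa and Tyrobp followed in changing order, with means of 14.0 to 18.7 in knockout, 10.2 to 15.4 in heterozygous and 7.92 to 12.8 in wild-type kidneys, and C1qb and Stab1 differed by less than the SD of C1qb in each group. Ptprc lay far below them, at 0.479 ± 0.0788, 0.364 ± 0.0693 and 0.275 ± 0.0561 CPM per kilobase in knockout, heterozygous and wild-type kidneys at E11.5.

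C1qa, C1qb and C1qc encode the 3 chains of complement C1q, which macrophages make. They lie side by side on the minus strand of chromosome 4 (build mm10, GENCODE vM21), C1qb at 136880129 to 136886187, C1qc at 136889804 to 136893065 and C1qa at 136895917 to 136898803. Of the summed C1q level per kilobase, C1qb took 38.6 to 49.4%, C1qa 29.7 to 38.2% and C1qc 20.9 to 27.5% over the 24 specimens. The ranges did not overlap, so the order of the 3 chains was the same in each specimen, whatever its genotype or stage. The level of the 3 together varied several-fold between E11.5 embryos, as set out next.

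Loss of both copies of Six2 at the onset of kidney development was examined at E11.5. Macrophage and leukocyte genes were higher in knockout than in wild-type embryos. Of the 35 members with enough counts to be tested, 22 rose, none fell and 13 did not pass (edgeR quasi-likelihood test, Benjamini-Hochberg adjusted p under 0.05 over 16141 genes), where 3.06% of all tested genes rose. The median log2 fold change of the 35 was 0.92, against 0.00 over all genes, and all 35 estimates were above 0. Timd4 and Cd163, a phosphatidylserine receptor and a haemoglobin scavenger receptor of resident macrophages, had too few counts at E11.5 to be tested.

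**Figure D1:**
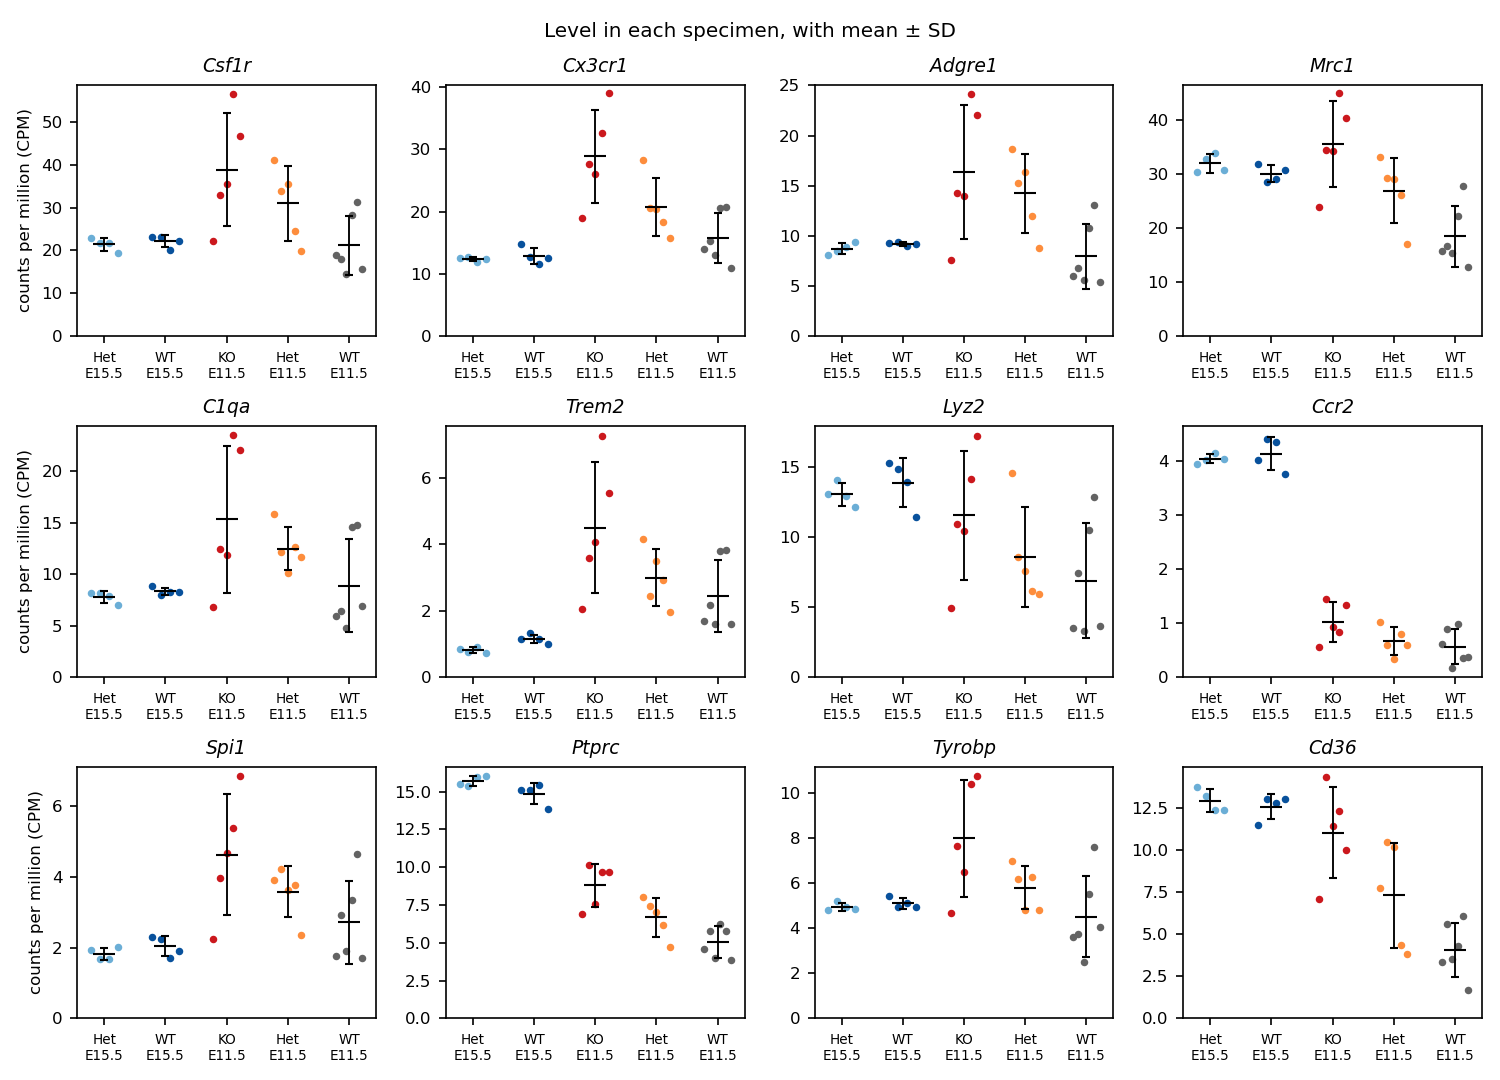
Level of 12 members in CPM (linear axis from 0) in each specimen, by genotype and stage (KO, knockout; Het, heterozygous; WT, wild type). Points are specimens and bars mean ± SD; Ptprc was 6.91 to 10.2 CPM in the 5 knockout and 3.87 to 6.26 CPM in the 6 wild-type embryos at E11.5, while Csf1r overlapped.

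Among the resident macrophage genes 11 of 15 tested rose, with a median log2 fold change of 0.94. Cx3cr1, the fractalkine receptor (chromosome 9, 119901616 to 120069879, minus strand), was at 19.0, 27.7, 26.1, 32.6 and 39.0 CPM in knockout embryos 1 to 5 and at 28.3, 20.6, 20.5, 18.3 and 15.8 CPM in heterozygous embryos 1 to 5, and at 10.9 (lowest), 14.6 (median) and 20.8 CPM (highest) in the 6 wild-type embryos. Knockout embryo 1 was the only knockout within the wild-type range. The log2 fold change of knockout over wild type was 0.95 ± 0.15 (SE), or 1.93-fold (adjusted p = 0.00057). Csf1r, the receptor on which these cells depend, was at 22.3, 32.8, 35.6, 56.5 and 46.6 CPM in the knockouts, against 14.6, 18.6 and 31.3 CPM as lowest, median and highest wild type, a log2 fold change of 0.97 ± 0.21 (1.95-fold, adjusted p = 0.0076). Here too knockout embryo 1 alone fell among the wild types.

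Adgre1, which encodes the macrophage marker F4/80, was at 7.58, 14.2, 14.0, 24.1 and 22.0 CPM in knockouts 1 to 5, against 5.38 to 13.1 CPM with a median of 6.41 in wild types (log2 1.14 ± 0.24, adjusted p = 0.00699). Mrc1, the mannose receptor gene (chromosome 2, 14229392 to 14332057, plus strand), was at 23.9, 34.5, 34.3, 45.0 and 40.5 CPM in knockouts and 12.8 to 27.9 CPM with a median of 16.3 in wild types (1.01 ± 0.18, adjusted p = 0.00252). In both genes 4 of the 5 knockouts exceeded every wild type. The scavenger receptor gene Msr1 (1.02 ± 0.23) and the lipid receptor gene Trem2 (1.01 ± 0.26) rose by like amounts. Stab1 and the lysosomal glycoprotein gene Cd68 rose by 0.54 each (SE 0.14 and 0.15), the smallest rises that passed in the class.

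The C1q genes rose by 0.93 ± 0.20 (C1qa), 0.93 ± 0.23 (C1qb) and 1.04 ± 0.20 (C1qc). C1qa was at 6.86, 12.5, 11.9, 23.5 and 22.1 CPM in knockouts, against 4.81 to 14.8 CPM with a median of 6.7 in wild types. Only knockouts 4 and 5 exceeded every wild type, since wild-type embryos 4 and 5 stood at 14.6 and 14.8 CPM and the other 4 at 6.94 CPM or less. The other 4 genes of the class did not pass: Aif1, the calcium-binding protein IBA1 (0.75, adjusted p = 0.127), Pf4 (0.39, 0.171), the high-affinity IgG receptor gene Fcgr1 (0.94, 0.0557) and the coagulation factor gene F13a1 (0.73, 0.0749).

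Of the 8 monocyte and general myeloid genes 3 rose, with a median of 0.91 for the class. They were Ly86, a partner of a Toll-like receptor homologue (0.98 ± 0.25, adjusted p = 0.0216), the low-affinity IgG receptor gene Fcgr3 (0.75 ± 0.21, 0.0398) and Spi1 (0.85 ± 0.25, 0.046). Spi1 was at 2.25, 3.97, 4.69, 5.38 and 6.86 CPM in knockouts and 1.7 to 4.65 CPM with a median of 2.41 in wild types, so that 3 of 5 knockouts lay above every wild type. The other 5 had estimates of 0.70 to 1.16. Ccr2, the monocyte chemokine receptor (chromosome 9, 124101950 to 124113557, plus strand), was at 0.563 to 1.45 CPM in knockouts and 0.178 to 0.985 CPM in wild types (0.99 ± 0.37, adjusted p = 0.124), with 79 reads over all 5 knockouts and 58 over all 6 wild types. Cd14, a co-receptor for bacterial lipopolysaccharide (1.16 ± 0.50, adjusted p = 0.199), was the least abundant and had the widest interval. Lyz2 (0.93, 0.0662), the integrin gene Itgam (0.88, 0.114) and the oxidase subunit gene Cybb (0.70, 0.0549) did not pass either.

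Of the 10 pan-leukocyte genes 7 rose, with a median of 0.76. Ptprc (chromosome 1, 138062861 to 138175708, minus strand) was at 6.91, 10.2, 7.58, 9.65 and 9.65 CPM in knockout embryos 1 to 5 and at 8.01, 7.43, 7.0, 6.18 and 4.73 CPM in heterozygous embryos 1 to 5, against 3.87, 5.19 and 6.26 CPM as lowest, median and highest wild type. Every knockout exceeded every wild type, and the heterozygous embryos overlapped both. The log2 fold change of knockout over wild type was 0.87 ± 0.14 (1.82-fold, adjusted p = 0.000933). Lcp1, a leukocyte actin-bundling protein gene, was at 43.0 to 55.6 CPM in knockouts and 20.6 to 39.5 CPM in wild types, again without overlap (0.64 ± 0.13, adjusted p = 0.00518). The adaptor genes Tyrobp (0.92 ± 0.19) and Fcer1g (1.01 ± 0.23), the tetraspanin gene Cd53 (1.09 ± 0.25), the protease gene Ctss (0.77 ± 0.17) and the actin regulator gene Coro1a (0.60 ± 0.12) also rose. The lysosomal membrane gene Laptm5 (0.41, adjusted p = 0.171), the integrin gene Itgb2 (0.25, 0.675) and the GTPase gene Rac2 (0.75, 0.0567) did not pass.

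Cd36, a receptor for fatty acids and oxidised lipids on macrophages and capillary endothelium (chromosome 5, 17781690 to 17888801, minus strand), rose most of the 35 tested members. It was at 7.12, 14.3, 11.4, 12.3 and 9.996 CPM in knockouts 1 to 5 and 7.76, 10.5, 10.2, 4.36 and 3.81 CPM in heterozygous embryos 1 to 5, against 1.7, 3.89 and 6.09 CPM as lowest, median and highest wild type (log2 1.49 ± 0.27, 2.81-fold, adjusted p = 0.00252). The knockouts lay above all wild types, while the heterozygous embryos fell into 3 above and 2 within the wild-type range. Of 15 endothelial genes 0 passed in the same comparison by edgeR, where 3.06% of all tested genes rose and 4.03% fell. DESeq2 also called 0, and 0 had an unadjusted p under 0.05 by edgeR (median 0.08). The summed level of these genes was 712 to 893 CPM in knockouts and 444 to 985 CPM in wild types. A link between endothelium and the rise of Cd36 was not tested. Csf1, the growth factor itself, was at 14.7 ± 2.18 CPM in knockout and 12.03 ± 2.32 CPM in wild-type kidneys (SD), and did not pass (0.32 ± 0.14, adjusted p = 0.202).

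Ptprc, Lcp1 and Cd36 were the only 3 of 35 members in which every knockout exceeded every wild type, where 1.23% of all tested genes did so. Group means stood in the order knockout, heterozygous, wild type in 33 of 35 members, the exceptions being Pf4 and Csf1, where 19.9% of all tested genes had that order. Leaving out 1 of the 16 embryos at a time, 13 of the 22 genes kept their call in every fit, among them Csf1r, Cx3cr1, Mrc1, Ptprc and Cd36. The other 9, Stab1, Trem2, Msr1, C1qb, Cd68, Fcgr3, Ly86, Spi1 and Fcer1g, lost it in 1 (Msr1, Fcer1g) to 13 fits (Spi1). The number of calls ran from 15, without knockout 2 or knockout 4, to 30, without wild-type embryo 5. With batch left out of the model 9 members rose (1.07% of all tested genes), in batch 1 alone 4 (0.432%; Cx3cr1, Mrc1, Stab1 and Cd36, median log2 0.80) and in batch 2 alone 0 (median 0.84, lowest adjusted p = 0.115, 21 genes at an unadjusted p under 0.05). Without the 6 libraries above 5% ribosomal counts, 3 wild-type ones among them, 0 passed (median 0.75, lowest adjusted p = 0.0548, 23 genes at an unadjusted p under 0.05). Of all tested genes, 1.0% passed in either direction in batch 2 alone and 2.11% without those 6 libraries. DESeq2 called 27 members higher with all embryos (3.59% of all tested genes). Over these and the other settings tried, all 638 estimates of the 22 genes stayed above 0, between 0.08 and 1.81. The 22 genes were chosen by the main fit and the settings reuse the same embryos, so these signs are no separate support. Of all tested members, 33 of 34 were above 0 in batch 1 alone and 34 of 35 with prefix and batch in the model.

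**Figure D2:**
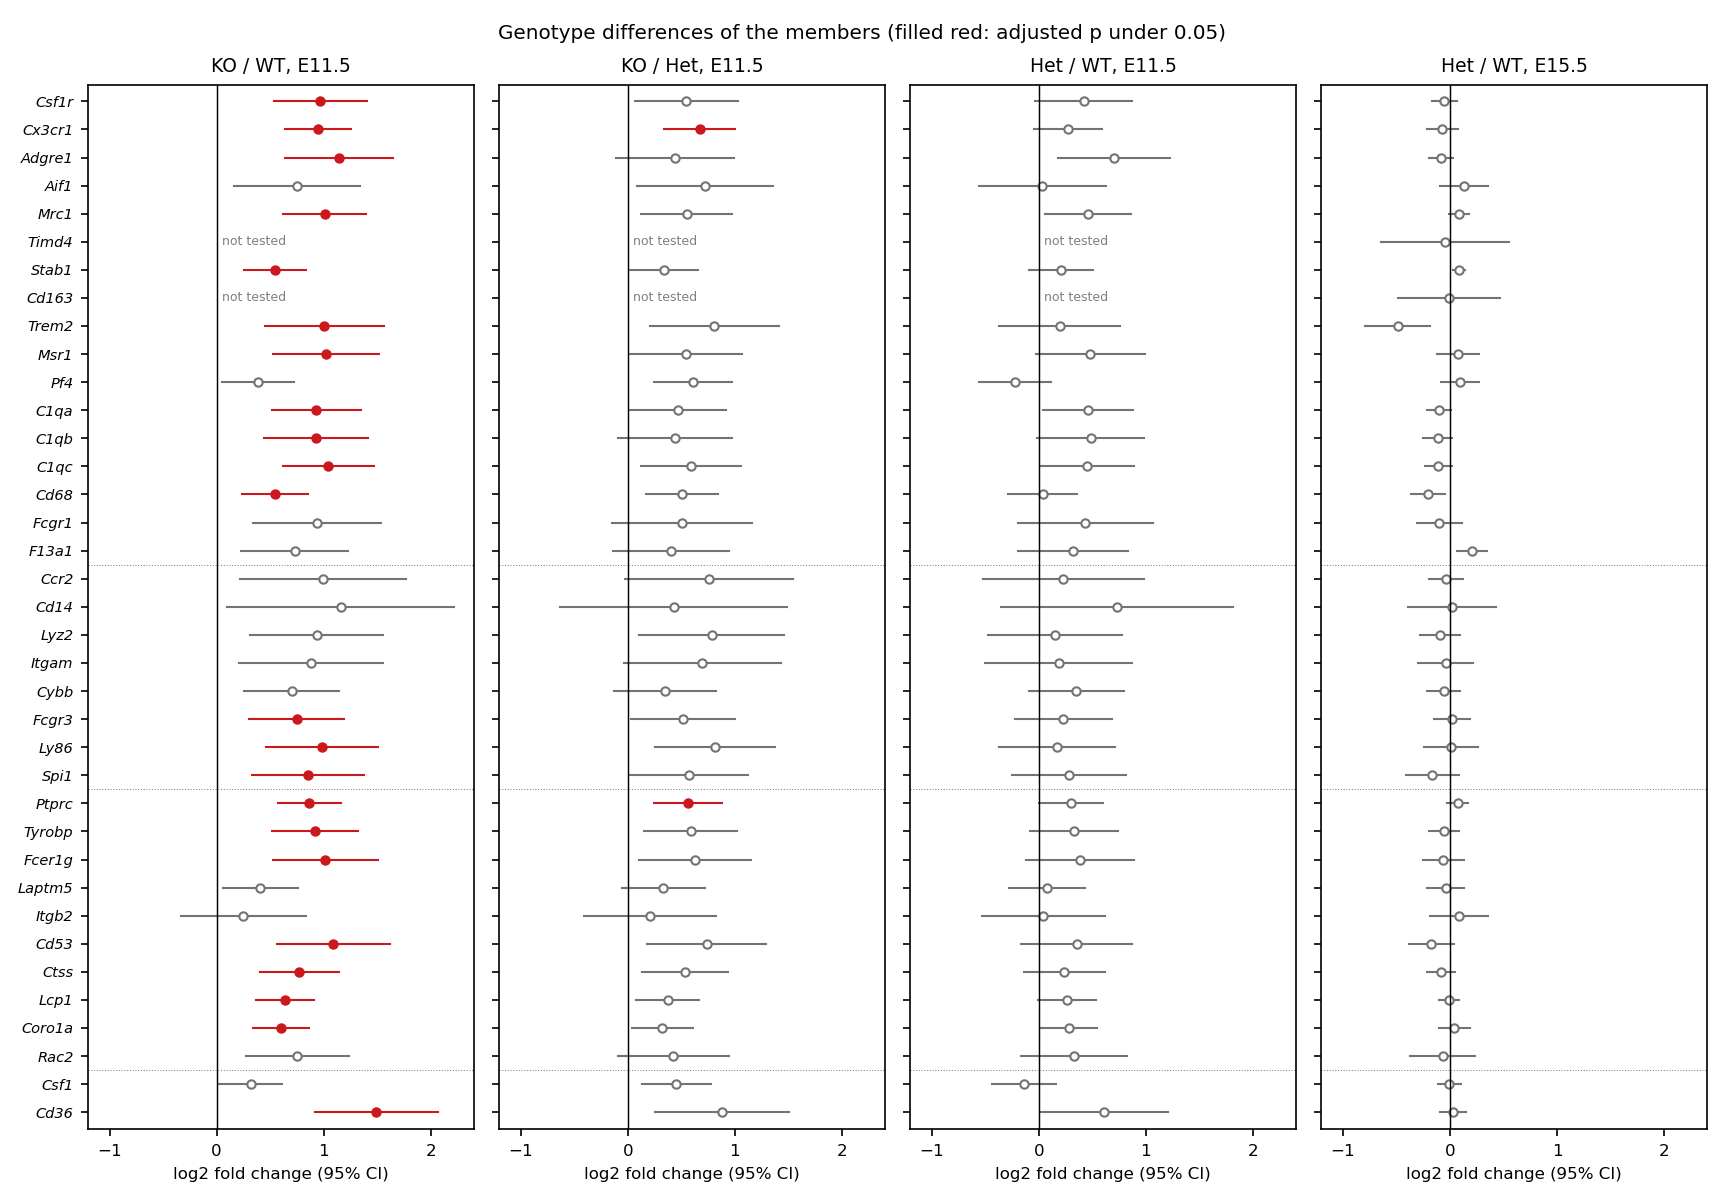
Log2 fold change with 95% confidence interval of each member in the 4 genotype comparisons, by class from top to bottom (resident macrophage, monocyte and general myeloid, pan-leukocyte, Csf1 and Cd36). Filled red points passed at an adjusted p under 0.05: 22 genes in knockout over wild type, 2 in knockout over heterozygous, and 0 in heterozygous over wild type at either stage.

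The E11.5 embryos of 1 genotype differed from each other in nearly all members at once. Summed over the 17 resident macrophage genes, the level was 291, 378, 379, 536 and 471 CPM in knockouts 1 to 5, 413, 354, 333, 314 and 253 CPM in heterozygous embryos 1 to 5, and 181 to 358 CPM with a median of 235 in the wild types. Stab1 alone gave a large part of these sums, with 158, 180, 176, 230 and 186 CPM in knockouts 1 to 5. Its levels were 184, 174, 152, 154 and 126 CPM in heterozygous embryos 1 to 5 and 87.7 to 172 CPM in wild types. Knockout 1 was the lowest knockout in 33 of 35 members, heterozygous embryo 1 the highest heterozygote in 29 and heterozygous embryo 5 the lowest in 26, and wild-type embryo 5 the highest wild type in 26. Thus a knockout with low levels and wild types with high levels overlapped in most genes.

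The sum moved with the title prefix as well as with genotype. Among embryos with prefix G4 it was 536 CPM in knockout 4, 354 and 333 CPM in 2 heterozygotes and 235 and 236 CPM in 2 wild types. With prefix G5 it was 291 CPM in knockout 1 and 211 CPM in a wild type, with G1 413 CPM in a heterozygote and 335 and 358 CPM in 2 wild types, and with G3 314 and 253 CPM in 2 heterozygotes and 181 CPM in a wild type. The 3 knockouts with prefix G6, at 378, 379 and 471 CPM, had no wild type beside them. Within G4 the knockout exceeded both wild types in 34 of 35 members (40.2% of all tested genes) and both heterozygotes in 31 (44.5%), and both heterozygotes exceeded both wild types in 29 (19.5%). Within G5 the knockout exceeded the wild type in 30 of 35 members (53.5% of all tested genes). The heterozygote exceeded both wild types in 28 members within G1 (37.7%), and both heterozygotes exceeded the wild type in 30 within G3 (39.2%). Members tended to be high or low together within an embryo, so each count compares a few embryos and is not 35 separate observations. Knockout 4 was run in batch 2 and the other embryos of its prefix in batch 1.

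**Figure D3:**
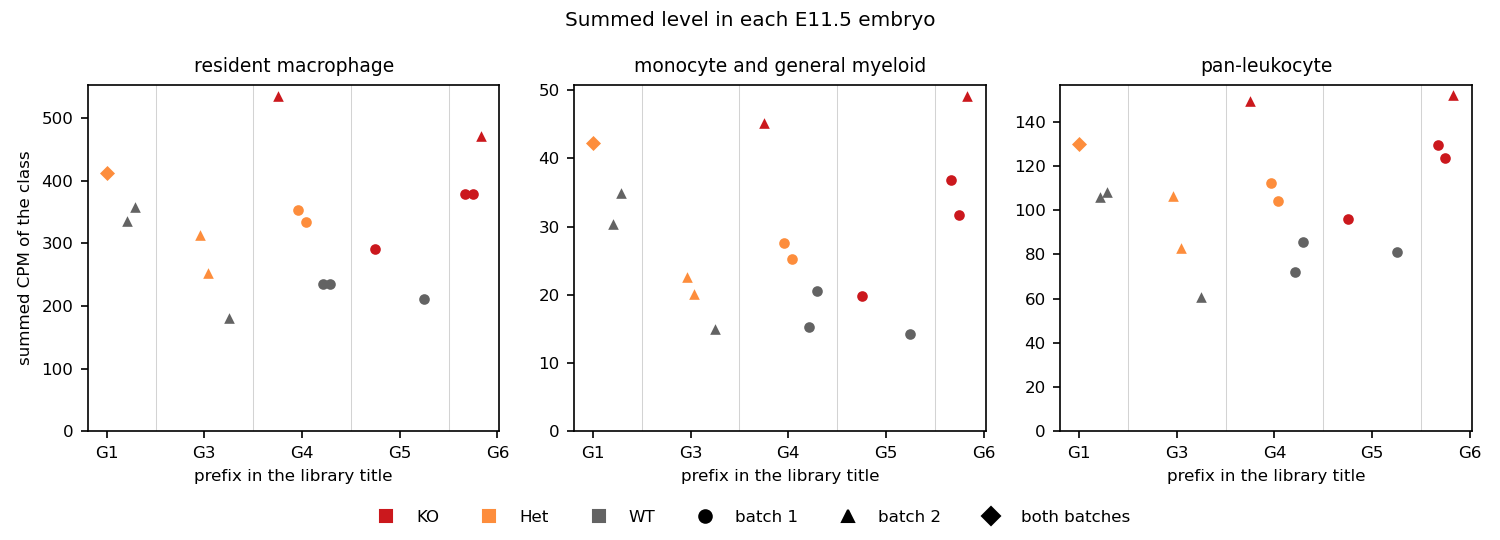
Summed CPM (linear axis from 0) of the resident macrophage, monocyte and general myeloid, and pan-leukocyte genes in each E11.5 embryo, by the prefix of the library title. Colours give genotype and symbols batch; for resident macrophage genes the knockout of prefix G4 stands at 536 CPM, its heterozygotes at 354 and 333 CPM and its wild types at 235 and 236 CPM. Stab1 alone gives 230 of the 536 CPM.

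With prefix in place of batch as a term of the model 15 of 35 members rose in knockout over wild-type kidneys (median 0.99), where 0.892% of all tested genes rose. With prefix and batch together, a model chosen after the data were seen, 0 passed (median 0.65, lowest adjusted p = 0.0536, 17 genes at an unadjusted p under 0.05). In that model 0.452% of all tested genes passed in either direction. The part of prefix in the difference was not separated further, since G6 held knockouts alone.

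The spread between specimens of a group was measured as the SD of log2 CPM. Its median over the 35 members was 0.0966 in heterozygous and 0.0902 in wild-type kidneys at E15.5, where counting error alone gives 0.086 and 0.0825. At E11.5 it was 0.5002 in knockout, 0.389 in heterozygous and 0.479 in wild-type kidneys, against counting errors of 0.124, 0.125 and 0.161. The 5447 other genes with levels between the lowest and highest decile of the members, 2.06 to 23.6 CPM, had medians of 0.0894 and 0.0771 at E15.5 and 0.249, 0.259 and 0.303 at E11.5, in the same order of groups. The members thus varied about as much as other genes between E15.5 specimens and more than other genes between E11.5 embryos.

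**Figure D4:**
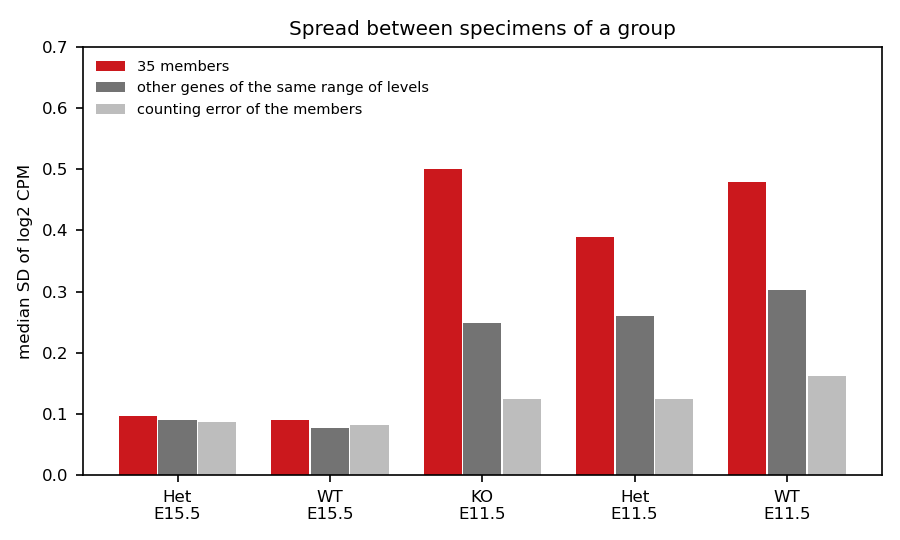
Median SD of log2 CPM between the specimens of each group for 35 members, for 5447 other genes in the same range of levels, and as given by counting error alone (bars from 0). The members reach 0.5002 in knockout and 0.479 in wild-type embryos at E11.5, and stay at 0.0966 and 0.0902 at E15.5.

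Knockout and heterozygous kidneys at E11.5 differed less clearly. Of 35 members 2 rose in knockouts, where 0.892% of all tested genes did, and the median log2 fold change was 0.54. They were Cx3cr1 (0.67 ± 0.16, 1.59-fold, adjusted p = 0.0266) and Ptprc (0.56 ± 0.15, 1.48-fold, adjusted p = 0.0497, edgeR). In both the 2 groups overlapped. At an unadjusted p under 0.05 there were 24 genes, and DESeq2 called 5 (1.49% of all tested genes). The median was 0.10 in batch 1 alone, 0.71 in batch 2 alone and -0.01 with prefix and batch both in the model, with 0 calls in each, and 0 calls remained without heterozygous embryo 2, 3 or 5 or without knockout 2, 3, 4 or 5. In batch 1 all knockouts were female and all heterozygotes male, so sex could be set apart from genotype there only through the wild types. With sex left out of the model for all E11.5 embryos the median was 0.35.

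The comparisons of heterozygous with wild-type kidneys addressed the loss of 1 copy of Six2. At E11.5 0 of 35 members passed, where 0.0124% of all tested genes rose (edgeR quasi-likelihood test). Their median log2 fold change was 0.28, 7 genes had an unadjusted p under 0.05, and DESeq2 called 0. Adgre1 came nearest, at 8.77 to 18.7 CPM in heterozygous and 5.38 to 13.1 CPM in wild-type embryos (0.70 ± 0.25, adjusted p = 0.527). For Csf1r the interval of the difference ran from -0.03 to 0.87 and for Ptprc from 0.00 to 0.60, so rises up to those upper bounds were not excluded. With prefix and batch both in the model, 9 members rose (median 0.59), where 0.142% of all tested genes rose.

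At E15.5 0 of 37 members passed in heterozygous over wild-type kidneys, where 0.57% of all tested genes passed in either direction. The median was -0.04, 4 genes had an unadjusted p under 0.05, and DESeq2 called 0. The 95% intervals were narrow, with a median half-width of 0.16, and all 37 lay between -1 and 1 on the log2 scale. Csf1r was at 22.9, 21.8, 21.7 and 19.3 CPM in heterozygous and 23.1, 23.1, 20.2 and 22.2 CPM in wild-type specimens (-0.05, 95% interval -0.17 to 0.07). Trem2 was at 0.851, 0.772, 0.908 and 0.716 CPM in heterozygous and 1.14, 1.32, 1.14 and 0.996 CPM in wild-type specimens, and did not pass (-0.49 ± 0.14, adjusted p = 0.247) although the specimens of the 2 genotypes did not overlap. Of the 37 members, 2 (Trem2 among them) had every heterozygous specimen below every wild-type one and 1 had the reverse. The share of all tested genes without overlap was not counted. The difference between the heterozygous effects at E15.5 and E11.5 passed in 0 of 36 members, where 0.00576% of all tested genes passed, with 1 at an unadjusted p under 0.05 and 0 by DESeq2.

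Between the stages, members moved in both directions. In wild-type kidneys the 17 resident macrophage genes summed to 260 to 270 CPM at E15.5 and 181 to 358 CPM at E11.5. Of these sums Stab1 alone gave 127 to 130 CPM at E15.5 and 87.7 to 172 CPM at E11.5. Of 36 tested members 10 rose and 6 fell (edgeR), where 26.4% of all tested genes rose and 26% fell, and the median log2 fold change was -0.02. The rises were thus near the share over all tested genes and the falls below it. Cd163 passed the filter on low counts only through the E15.5 specimens, and of the 35 members that passed it within each stage 9 rose and 6 fell. With Cd163 included, 8 of the rises and 4 of the falls also passed in each batch alone. The E15.5 specimens were the same in both batches, so on that side the batches are repeated runs and not separate samples. The share of all tested genes that passed in both batches was not counted. Wild-type libraries held 0.543 to 0.740% ribosomal counts at E15.5 and 20.5 to 26.6% at E11.5 in batch 1, and 0.398 to 0.803% and 0.223 to 0.293% in batch 2. Batch 1 alone gave 15 rises and 5 falls (31.7% and 32% of all tested genes), and batch 2 alone 8 and 10 (31.4% and 28.6%). The libraries with at most 5% ribosomal counts gave 6 and 7 (28.3% and 26.4%), and the wild-type specimens fitted alone 9 and 3 (22.9% and 21.2%).

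The monocyte genes rose or did not pass. Ccr2 was at 4.01, 4.41, 4.34 and 3.75 CPM in E15.5 wild types, against 0.178 to 0.985 CPM with a median of 0.498 in E11.5 wild types, a 6.88-fold rise (log2 2.78 ± 0.28, adjusted p = 2.35e-08). No specimens of the 2 stages overlapped. Cd14 (1.33 ± 0.45), Lyz2 (0.85 ± 0.32) and Cybb (0.75 ± 0.20) rose as well, the last 2 without passing in batch 2 alone. Itgam (0.01), Fcgr3 (-0.04), Ly86 (0.14) and Spi1 (-0.51, adjusted p = 0.117) did not pass.

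Resident macrophage genes divided. Cd163 had 134 reads over 4 wild-type specimens at E15.5 and 2 reads over 6 embryos at E11.5, a ratio of 28.4 after scaling by the library totals (95% interval 7.72 to 237, counting error only). It was at 0.515 to 0.577 CPM at E15.5, and 4 of the 6 E11.5 embryos had no read. Mrc1 (0.61 ± 0.18), Msr1 (0.83 ± 0.21) and F13a1 (0.87 ± 0.22) also rose. Trem2 fell to 0.996 to 1.32 CPM at E15.5, against 1.6 to 3.82 CPM at E11.5 (-1.21 ± 0.31, adjusted p = 0.00221). Pf4 fell to 3.97 to 4.88 CPM at E15.5, against 9.26 to 15.8 CPM at E11.5 (-1.40 ± 0.19, adjusted p = 2.11e-06), and Cd68 fell by 0.47 ± 0.15. All 8 genes of a megakaryocyte and platelet list that passed the filter within each stage, Pf4 not counted, fell as well, where 26% of all tested genes fell. A link between these falls and that of Pf4 was not tested. Csf1r (-0.05, 95% interval -0.52 to 0.41), Cx3cr1 (-0.40), Adgre1 (0.09), Stab1 (-0.09), Aif1 (-0.23), Fcgr1 (-0.33) and the C1q genes (-0.28 to -0.22) did not pass. Timd4, with 47 reads at E15.5 and 18 at E11.5, had a ratio of 1.11 (95% interval 0.631 to 2.03).

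Pan-leukocyte genes divided too. Ptprc was at 15.1, 15.1, 15.4 and 13.9 CPM in E15.5 wild types, against 3.87 to 6.26 CPM in E11.5 wild types (log2 1.48 ± 0.13, 2.78-fold, adjusted p = 3.29e-09). Every E15.5 specimen also exceeded every E11.5 knockout, the highest of which was at 10.2 CPM. Laptm5 (-0.67 ± 0.18), Coro1a (-0.65 ± 0.21) and Rac2 (-0.66 ± 0.25) fell, the last 2 without passing in batch 1 alone (-0.22, adjusted p = 0.191, and -0.49, adjusted p = 0.0733), and the other 6 genes, from Itgb2 (-0.52) to Ctss (0.26), did not pass. Cd36 rose to 11.5 to 13.1 CPM at E15.5, against 1.7 to 6.09 CPM at E11.5 (1.50 ± 0.26, adjusted p = 5.11e-05). Of 15 endothelial genes 10 rose and none fell, where 26.4% of all tested genes rose and 26% fell. A link between these rises and that of Cd36 was not tested. Csf1 held at 12.7 ± 0.476 CPM at E15.5 and 12.03 ± 2.32 CPM at E11.5 (0.01, 95% interval -0.27 to 0.29).

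**Figure D5:**
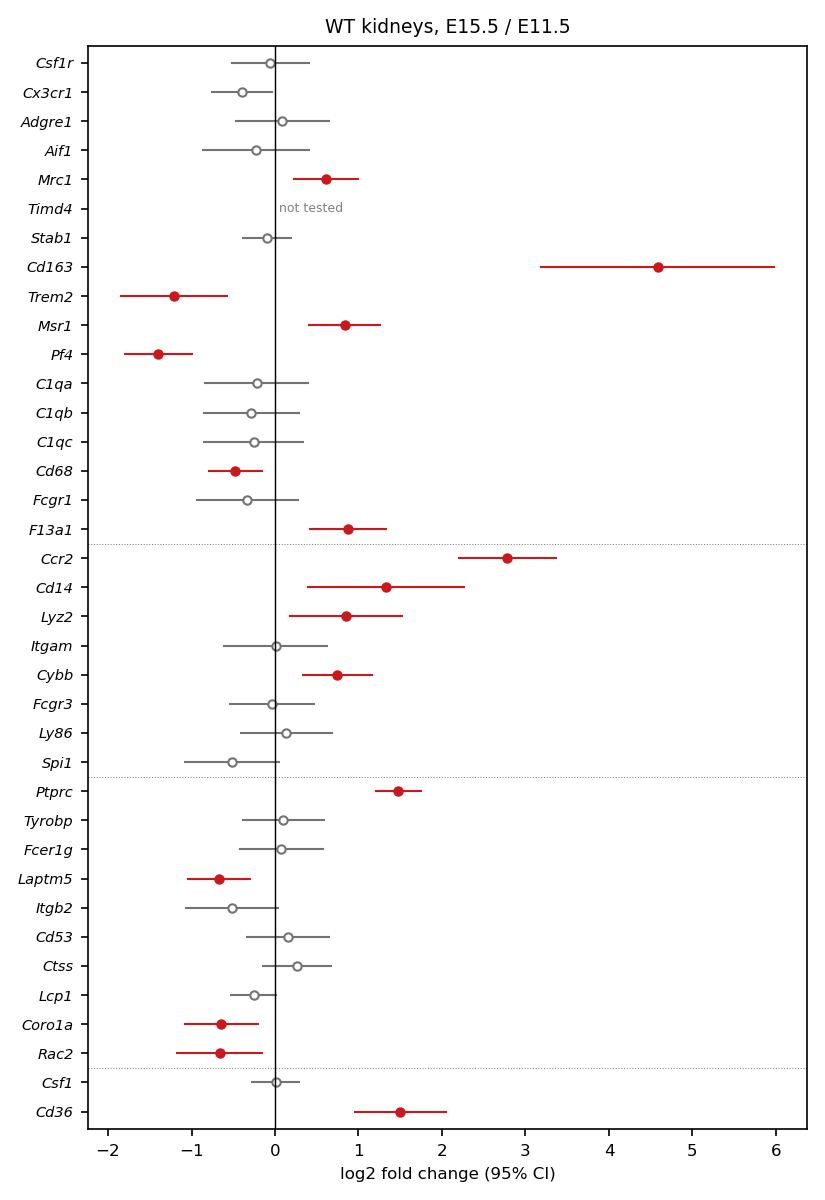
Log2 fold change with 95% confidence interval of each member in wild-type kidneys at E15.5 over E11.5, by class from top to bottom. Filled red points passed at an adjusted p under 0.05; of the members with enough counts at both stages Ccr2 (2.78) rose most and Pf4 (-1.40) and Trem2 (-1.21) fell most, while the point of Cd163 rests on 2 reads at E11.5.

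Genes that act with the members were counted on lists of their own, again in knockout over wild-type kidneys at E11.5. Of 16 tested growth factors, receptors and regulators of macrophages 7 rose and none fell (median 0.40), where 3.06% of all tested genes rose and 4.03% fell. Among them were Vav1, a signalling protein of blood cells (1.06 ± 0.18), the transcription factor gene Tfec (1.04 ± 0.28) and the interferon regulatory factor genes Irf8 (0.80 ± 0.15) and Irf5 (0.62 ± 0.15). Irf8, which myeloid cells need, was at 3.53 to 8.95 CPM in knockouts and 2.61 to 5.06 CPM in wild types. Of 11 genes named for microglia, the macrophages of the brain, 2 rose and none fell: P2ry6 (1.18 ± 0.26) and Fcrls (1.03 ± 0.18). Of 11 genes for the uptake of dying cells 4 rose and 1 fell. Those that rose were Dock2 (0.86 ± 0.25), Pros1 (0.46 ± 0.06), Abca1 (0.39 ± 0.09) and the receptor gene Mertk (0.36 ± 0.10), and the bridging protein gene Mfge8 fell by 0.33 ± 0.07. Of 8 chemokine, receptor and cytokine genes Ccl9 (1.11 ± 0.25) and Ccl3 (1.102 ± 0.32) rose, and Cxcr4 (-0.71 ± 0.15), which nephron and endothelial cells also express, fell. DESeq2 did not call Ccl3. Leaving out 1 embryo at a time, Ccl3 lost its call in 13 of 16 fits, Mertk in 12, Dock2 in 11, Tfec in 6 and Irf5 in 3.

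Of the genes tested for neutrophils (5), mast cells (2), T and natural killer cells (2), megakaryocytes (10) and red cells (14), 0 passed between knockout and wild-type kidneys by edgeR and 0 by DESeq2. At an unadjusted p under 0.05 there was 1 mast cell gene, Kit, 1 T cell gene, Thy1, and 0 in each of the other 3 lists. In these lists the most abundant genes were Prtn3 (0.15), Kit (0.38), Lck (0.19), Itgb3 (0.25) and Hbb-y (-0.55). The 5 neutrophil genes had a median of -0.95, with 3 below 0, and the 14 red cell genes a median of -0.53, with 13 below 0. The 10 megakaryocyte genes had a median of 0.24, with 2 below 0. Both mast cell genes (median 0.63) and both T and natural killer cell genes (median 0.39) were above 0. Summed levels in knockout and wild-type embryos were 46.5 to 69.8 and 39.9 to 66.0 CPM for megakaryocyte genes and 2035 to 5690 and 2276 to 9671 CPM for red cell genes, and the T cell receptor genes Cd3e and Cd3d were at 0 in every E11.5 group. Of 4 B cell genes Blnk (1.30 ± 0.24) and Ighm (0.90 ± 0.18) rose, while Ms4a1 was at 0 in the knockouts. Of 8 genes of dendritic cells and MHC class II, by contrast, 4 fell and none rose: H2-Eb1 (-1.95 ± 0.32), their activator gene Ciita (-1.87 ± 0.24), H2-Ab1 (-0.97 ± 0.20) and H2-Aa, which had no read in any knockout and 0.237 to 1.03 CPM in wild types. H2-Eb1 (-1.02 ± 0.12), H2-Aa (-0.88 ± 0.15) and H2-Ab1 (-0.29 ± 0.05) also fell in heterozygous over wild-type kidneys at E15.5, where no member passed. Of 12 kidney genes Cited1 (-1.24), Gdnf (-1.02), Osr1 (-0.94) and Eya1 (-0.78) fell and Wnt9b (0.72, lost in 10 of 16 fits without 1 embryo) rose in knockouts. The part of these genes in the members' differences was not tested.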

How the data were processed

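Illumina libraries were made from RNA of snap-frozen whole kidneys. The authors deposited raw counts of reads for each gene symbol, beside a gene length in bases, used here for levels per kilobase. STAR 2.4.0h1, featureCounts 1.4.6 and build mm10 are named, per the submitters' processing notes; annotation and strandedness are not given in the sources used here, so overlapping genes could share reads.

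Runs of 1 specimen were summed, which gave 24 specimens from 33 libraries; whether these are separate animals is not labelled, and p-values then cover only the spread among specimens, which may be technical. Tests used edgeR 4.0.16 under R 4.3.3 (trimmed mean of M values, filterByExpr with a minimum count of 10, quasi-likelihood test, Benjamini-Hochberg adjustment at 0.05 over all genes tested). Genotype, sex and batch were terms at E11.5, and genotype and sex at E15.5. The stage and interaction fits used all 24 specimens with group and sex. At E11.5 the batch equals the replicate number of the titles, so batch is the replicate block. CPM values use scaled library sizes, and intervals cover the stated spread or counting error only. DESeq2 1.42.0, other scalings and models, single batches and left-out specimens were alternatives.

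The 37 members and the other lists were chosen with earlier results of these data known. Every member is named; of the other 14 lists (187 genes, 1 missing), the called genes with the largest changes, at most 4 a list, or else the most abundant gene. Thy1, Mfge8, Wnt9b, Prtn3 between stages and the lists' genes at 0 were named after their values were seen. Results for 2 genes of these lists are not reported here.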

Additional observations from a re-analysis of the deposited data

Results flagged for a closer look

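Of 182 groups of 4 to 10 values examined, 8 held a specimen set apart from the rest of its group, where chance alone gives about 1 in 20, or 9.1. Msr1 was 2.52 CPM in heterozygous E15.5 specimen 4, below the others at 2.74 to 2.77 CPM. Cd68 was 10.9 CPM in knockout embryo 5, above the others at 7.12 to 8.04 CPM. Fcgr1 was 3.92 CPM in wild-type E11.5 embryo 5, above the others at 1.7 to 2.36 CPM. Fcgr3 was 9.21 CPM in heterozygous E11.5 embryo 1, above the others at 4.81 to 5.41 CPM. Ly86 was 3.72 CPM in heterozygous E11.5 embryo 1, above the others at 1.92 to 2.18 CPM. Laptm5 was 11.5 CPM in knockout embryo 1, below the others at 15.8 to 16.3 CPM. Ctss was 6.86 CPM in heterozygous E15.5 specimen 4, below the others at 7.75 to 7.89 CPM. Lcp1 was 31.7 CPM in wild-type E15.5 specimen 4, above the others at 28.3 to 28.7 CPM. Heterozygous E11.5 embryo 1, knockout embryo 1 and wild-type E11.5 embryo 5, which account for 4 of the 8, are also those that were highest or lowest of their group in most members.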

How the results depend on the processing

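At E11.5 the batch served as the replicate block. With no replicate block, knockout over wild-type kidneys gave 9 member calls in place of 22, and knockout over heterozygous kidneys 0 in place of 2. Batch 1 alone gave 4 and 0, batch 2 alone 0 and 0, and leaving out libraries above 5% ribosomal counts 0 and 0; these fits hold fewer embryos. Prefix and batch together, added after seeing the data, gave 0 and 0, and 9 in place of 0 for heterozygous over wild-type kidneys; the cause was not tested. For knockout over heterozygous kidneys prefix alone and all 24 specimens in 1 fit gave 0, leaving sex out gave 1 and DESeq2 gave 5. Leaving out each embryo in turn gave 15 to 30 calls in knockout over wild-type, 0 to 4 in knockout over heterozygous and 0 to 0 in heterozygous over wild-type kidneys. Between stages, calls numbered 12 to 20, and C1qa and C1qc, which were below 0 without passing, were 0.42 (adjusted p = 0.0472) and 0.41 (adjusted p = 0.0296) in batch 1 alone. No other value changed sign with a call: of 4926 recomputed member values, 4638 kept direction and side of the threshold, 221 lost a call, 65 gained 1 and 2 reversed. Cd163, Timd4, Cd14 and Ccr2 are limited by depth at E11.5.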

Other observations

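Between the stages, other leukocyte genes moved as well in wild-type kidneys, where 26.4% of all tested genes rose and 26% fell. Hdc, the histamine-forming enzyme of mast cells and other cells, averaged 79.2 ± 8.41 CPM at E15.5 (SD, n = 4) and 0.604 ± 0.226 CPM at E11.5 (n = 6), and it rose by 7.07 ± 0.33 (SE) on the log2 scale (edgeR, adjusted p = 9.52e-14). Kit, the stem cell factor receptor, fell by 1.39 ± 0.27. Ms4a2, a chain of the IgE receptor, and the protease gene Cpa3 had enough counts at E15.5 only, at 2.32 ± 0.224 and 0.97 ± 0.217 CPM, against 0.201 ± 0.188 and 0.115 ± 0.0706 CPM at E11.5. The B cell gene Blnk, which macrophages also express, rose by 2.89 ± 0.19.

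Of 4 neutrophil genes with enough counts within each stage 3 fell, among them Prtn3, at 1.89 ± 0.333 CPM at E15.5 and 4.22 ± 0.551 CPM at E11.5. Of 16 growth factor, receptor and regulator genes with enough counts within each stage 5 rose and 5 fell, near the shares over all genes. The granulocyte regulator gene Cebpa rose by 1.66 ± 0.29, and Csf2rb, a shared chain of cytokine receptors, fell by 1.81 ± 0.35. Il34, the second ligand of CSF1R, had enough counts at E15.5 only, at 1.08 ± 0.163 CPM, against 0.352 ± 0.187 CPM at E11.5.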
